A study of Mus musculus with 48 samples.

Results

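Neurog3-null cells of the E15 mouse pancreas were compared with E15 acinar cells, to ask how far pancreatic cells that switch on the Neurog3 locus without making the Neurog3 protein resemble the exocrine cells that form beside them. The comparison rests on 7 of the 48 arrays of the series, 4 of Neurog3-null cells and 3 of acinar cells, chosen by their titles. The stage field of all 7 arrays is E15.5; the titles of the null arrays name another day, and the stage field was used. Both groups are labelled CD-1 by strain background. The null cells were sorted as GFP+ cells from homozygous Neurog3 eGFP/eGFP knock-in embryos, in which eGFP replaces Neurog3, with the antibodies used for endocrine progenitors (CD49f low, CD133+, CD24+). The acinar cells are labelled wild type and came from Neurog3-eGFP transgenic pancreata as CD49f high, CD133+, CD24+ cells without eGFP. Genotype, reporter line, gate and the buffer in which cells were collected therefore differ together between the 2 groups, and their parts cannot be told apart. Pancreata were pooled before sorting, and nothing in the labels says that replicates came from separate litters, so p-values measure only a spread between sorted samples. Unless another fit or test is named, that spread was pooled over the replicates of all 13 populations, not taken from these 7 arrays alone. Progenitors and endocrine progenitors of E15 (3 arrays each, labelled wild type) serve as points of orientation.

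Neurog3 is the basic helix-loop-helix factor that commits pancreatic progenitors to the endocrine lineage, and mice without it form no islet cells. Acinar cells arise from the tips of the branching epithelium. There, Ptf1a with its partner Rbpjl, Nr5a2 and Bhlha15 (Mist1) drive the digestive enzyme genes and the large endoplasmic reticulum that exports their products. Endocrine progenitors and duct cells arise from the trunk of the same epithelium, and Notch signalling separates these fates.

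Values are log2 expression values made by RMA, 1 per probe, and a difference is always Neurog3-null minus acinar. A gene stands for its brightest probe. A gene or probe was called at a Benjamini-Hochberg adjusted p under 0.05 in limma with a difference of at least 1 on the log2 scale (2-fold), in a fit of all 48 arrays. Array medians of the 7 arrays lay between 6.58 and 6.73, and 49.1% to 50.9% of their probes exceeded 100 on the linear scale. Some libraries stood apart. All 4 null arrays carried macrophage and leukocyte markers, with list means of 11.20 to 12.00 in null arrays and 5.83 to 6.26 in acinar arrays; adult duct arrays averaged 11.67. The acinar arrays carried endothelial markers, with list means of 6.23 to 7.42 in null arrays and 8.48 to 9.59 in acinar arrays. Acinar replicate 2 had the highest mean of dissociation stress genes among acinar arrays, 10.43. Xist, the RNA of the inactive X chromosome, measured 12.13, 6.49, 11.25 and 10.79 in null replicates 1 to 4, against 12.10, 11.91 and 12.64 in acinar cells. Its other 2 probes read 3.70 and 3.67 in null replicate 2 and at least 10.14 in the other null arrays. The Y chromosome gene Eif2s3y read 9.90 to 11.46 over the 7 arrays. The mix of sexes thus differed in null replicate 2, and its part in the differences was not tested. Null replicate 2 also had the largest excess of the 3′ over the 5′ control probe for Gapdh, 1.86, against 1.12 to 1.23 in the other null arrays and 0.82 to 0.92 in acinar arrays. For Actb the excess was 1.10, 1.88, 1.24 and 1.23 in null arrays and 1.02, 0.84 and 0.75 in acinar arrays. Every null array thus stood above every acinar array for both control genes. In sorted bulk samples fewer cells of a type and less RNA per cell cannot be told apart.

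Neurog3 itself was measured by 2 probes that disagreed. The brighter one read 10.97, 10.29, 10.70 and 10.32 in null cells, against 8.14, 7.42 and 7.82 in acinar cells. On this probe null cells stood above every acinar array (difference 2.78 ± 0.35 SE, limma adjusted p = 3.2e-08) and below endocrine progenitors, which averaged 13.40 ± 0.05 (SD, n = 3). The other probe read 5.09, 5.68, 5.59 and 5.56 in null cells and 6.32, 5.89 and 6.04 in acinar cells, and 11.56 ± 0.15 (SD, n = 3) in endocrine progenitors. Where either probe lies relative to the replaced part of the gene is not given in the sources used here, so neither checks the genotype. Of the genes for the sorted surface proteins, Prom1 (CD133) averaged 12.29 ± 0.13 (SD, n = 4) in null cells and 12.39 ± 0.03 (SD, n = 3) in acinar cells, and Cd24a 13.78 ± 0.07 and 13.72 ± 0.01. Itga6 (CD49f), on which the gates differed, averaged 12.29 ± 0.27 in null cells and 13.20 ± 0.10 in acinar cells.

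Of 32078 probes, 7036 were called between Neurog3-null and acinar cells (21.9%), 3433 higher (10.7%) and 3603 lower (11.2%) in null cells. By gene, 3229 of 14485 were called (22.3%), 1984 higher (13.7%) and 1245 lower (8.6%), and the median difference over all genes was 0.08. Among the 12 wild-type populations, null cells had the fewest called probes against E15 progenitors, 5788 (18%), followed by acinar cells and by E11 progenitors, 8161 (25.4%). Against endocrine progenitors, whose surface gate they share, 9968 probes were called (31.1%). The highest count was 11717 (36.5%), against P15 beta cells. Populations differ in their number of arrays (3 to 5), which also moves such counts. Among the genes named, the calls of Reg3g, Gamt, Pcsk1, Anxa3, Col4a1, Hes1, Onecut2, Rab27b, Fgfr2, Pyy, Runx1t1, Gatm, Sec61b, Cdkn1b, Rb1 and Cdh2 were lost when 1 or more of the 7 arrays were left out in turn.

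Correlations also placed acinar cells and E15 progenitors nearest to null cells. After each probe was centred on its mean over the 44 wild-type arrays, the 4 null arrays correlated with acinar arrays at a mean Pearson r of 0.41, 0.44, 0.53 and 0.55, and with E15 progenitor arrays at 0.46, 0.43, 0.53 and 0.48. The means, 0.48 ± 0.07 and 0.48 ± 0.04 (SD over 4 null arrays), lay within that spread of each other. Adult duct cells followed at 0.31 and E11 progenitors at 0.19, and endocrine progenitors gave -0.13. Null arrays correlated with each other at 0.87, acinar arrays with each other at 0.92, and acinar with E15 progenitor arrays at 0.71. These are correlations across 32078 probes, which are not independent replicates, and they carry no p. Without the 1755 probes (5.47%) that followed macrophage, endothelial or mesenchyme markers over the wild-type arrays (r of at least 0.7), r was 0.57 with acinar cells and 0.58 with E15 progenitors.

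**Figure D1:**
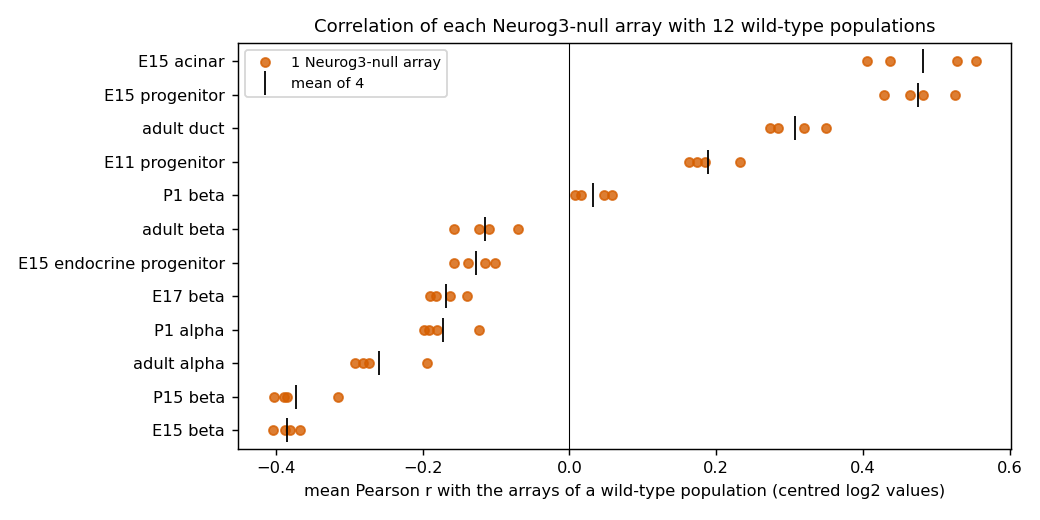
Mean Pearson r (x axis) of each of the 4 Neurog3-null arrays (points) with the arrays of each wild-type population (rows), over 32078 centred probes, with the mean of the 4 as a bar. The acinar and E15 progenitor points overlap, at 0.41 to 0.55 and 0.43 to 0.53, and all 4 endocrine progenitor points lie below 0.

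The markers chosen for acinar identity were present in null cells at a level below that of acinar cells. Bhlha15, the secretory cell factor also called Mist1, measured 10.83, 12.35, 12.01 and 12.25 in null cells, against 12.79, 12.75 and 12.85 in acinar cells. The groups did not overlap, but the difference of -0.94 ± 0.40 SE was not called (limma adjusted p = 0.057). Ptf1a, the factor that specifies acinar cells, measured 9.33, 10.61, 10.61 and 11.10 in null cells and 12.74, 12.46 and 12.83 in acinar cells. It was called lower, 4.81-fold (difference -2.27 ± 0.49 SE, adjusted p = 0.00025). Gfi1, a zinc-finger repressor, measured 8.16, 9.51, 9.23 and 9.67 in null cells and 10.68, 10.82 and 10.67 in acinar cells, and was called lower, 2.99-fold (-1.58 ± 0.46 SE, adjusted p = 0.005). Null replicate 1 was lowest for all 3 genes.

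Against endocrine progenitors the same 3 genes were higher in null cells. Bhlha15 differed by 3.20 from the endocrine progenitor mean of 8.66 ± 0.75 (adjusted p = 1.6e-08), Ptf1a by 3.07 from 7.34 ± 1.42 (adjusted p = 1.8e-06) and Gfi1 by 3.17 from 5.98 ± 0.88 (adjusted p = 3e-07; SD, n = 3 each). Against E15 progenitors only Bhlha15 was called among the 3, with a difference of 1.14 from 10.72 ± 0.95 (adjusted p = 0.022). For Ptf1a the difference from E15 progenitors was -0.26 (adjusted p = 0.71) and for Gfi1 1.11 (adjusted p = 0.053). In E15 progenitors all 3 genes spread over arrays by an SD of 0.95 or more.

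Ptf1a binds as a complex with Rbpjl to a split site made of an E-box (CANNTG) and a TC box (TTTCCCA or its reverse complement TGGGAAA). The promoters of 3 enzyme genes measured here show such a pair before the gene start and are printed for that pair. None of the 17 enzyme genes tested was called in the fit of 48 arrays, so the lack of a call does not set these 3 apart. Cpa1 and Ctrb1 read near the bright end of the array, and Cel was called lower with 7 arrays (limma adjusted p = 0.028). Capitals mark the TC box and the E-box; sequences are RefSeq's on GRCm38.p6, read 5′ to 3′ on the strand of the gene.
Cel, chr2:28563445-28563508, minus strand: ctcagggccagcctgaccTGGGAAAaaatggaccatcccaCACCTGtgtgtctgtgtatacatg
Cpa1, chr6:30639162-30639217, plus strand: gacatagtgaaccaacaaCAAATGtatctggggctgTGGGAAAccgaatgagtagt
Ctrb1, chr8:111691181-111691233, minus strand: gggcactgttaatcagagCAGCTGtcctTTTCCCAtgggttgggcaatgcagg
The 2 boxes lie 15, 12 and 4 bases apart. Over windows of 250 bases before to 50 after the start, searched on both strands, 1.96% of 27025 genes held an E-box and a TC box with at most 25 bases between them, 9.16% a TC box and 75% an E-box. Of the 27 enzyme genes listed, 21 matched a promoter, and 4 of these held such a pair, 6 a TC box and 18 an E-box. A match is a description of letters and not a bound site.

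Digestive enzyme and zymogen genes, the products that define acinar cells, stood slightly below acinar levels. Of the 27 listed genes 17 have a probe of their own, and all 17 were tested. Their list mean was 11.02, 11.72, 11.62 and 11.97 in null arrays, against 12.38, 12.28 and 12.24 in acinar arrays, 10.62 ± 0.89 (SD, n = 3) in E15 progenitors and 9.13 ± 1.25 (SD, n = 3) in endocrine progenitors. The null arrays all lay below the acinar arrays, and 12 of the 17 genes were lower and 1 higher without overlap. Over all genes tested 22% were lower without overlap. In the fit of 48 arrays none of the 17 was called in either direction, and 1 had an unadjusted p under 0.05. In a fit of the 7 arrays alone 6 were called lower and 1 higher, and the methods' t-test called 4 lower and 1 higher. The standard error of Cela2a, for example, was 1.03 with 48 arrays and 0.25 with 7. The enzyme list mean ranged from 7.09 to 12.30 among the 5 adult alpha cell arrays that share the larger fit. It averaged 13.70 in adult duct, 12.80 in adult beta and 12.27 in P1 beta cells, but 9.28 in E15 beta cells and 7.55 in E11 progenitors. A list mean near that of acinar cells was therefore not particular to null cells.

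Single enzymes varied within the list. Pnliprp1, a lipase-related protein, measured 14.11, 14.42, 14.28 and 14.39 in null cells and 14.30, 14.28 and 14.31 in acinar cells, and the groups overlapped. Cpa1, which encodes carboxypeptidase A1, measured 13.53, 13.96, 13.86 and 13.93 in null cells and 14.10, 14.11 and 14.02 in acinar cells, a difference of -0.26 ± 0.93 SE. Ctrb1, chymotrypsinogen B, differed by -0.25 and Clps, the cofactor of pancreatic lipase, by -0.31, and neither was called in the fit of 48 or of 7 arrays. These are among the brightest probes of the array, where the scale has least room. Cel, carboxyl ester lipase, measured 11.19, 12.51, 12.30 and 12.72 in null cells and 13.29, 13.20 and 13.37 in acinar cells. Cpb1, carboxypeptidase B1, had the largest difference of the list, with 8.27, 10.64, 10.32 and 11.07 in null cells and 12.38, 12.25 and 12.27 in acinar cells (-2.22 ± 1.28 SE, adjusted p = 0.16 with 48 arrays and 0.016 with 7). Ctrc, chymotrypsin C, followed at -1.91, Cela2a at -1.71, Prss3 at -1.36 and Prss2, an anionic trypsinogen, at -1.21. Pla2g1b, the pancreatic phospholipase A2, went the other way, with 8.04, 8.44, 8.03 and 8.05 in null cells, 6.47, 6.73 and 6.16 in acinar cells and 8.51 ± 0.06 (SD, n = 3) in endocrine progenitors (1.69 ± 0.82 SE, adjusted p = 0.093). Against endocrine progenitors 12 of the 17 enzymes were called higher in null cells (18.7% of all genes), and against E15 progenitors 2 (9.79% of all genes), Amy1 and Pla2g1b.

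**Figure D2:**
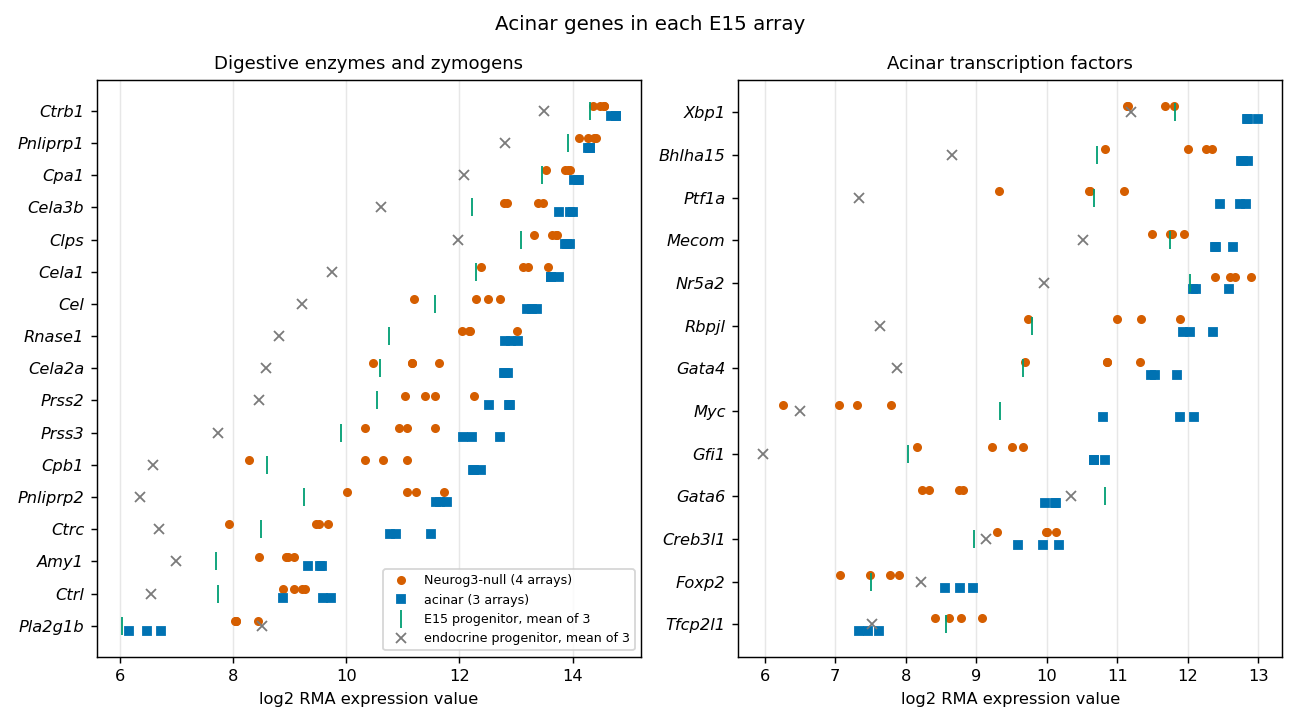
Log2 RMA value (x axis) of each digestive enzyme gene (left) and acinar transcription factor gene (right) in the 4 Neurog3-null arrays (circles, upper line of each row) and 3 acinar arrays (squares), with the means of E15 progenitors (green bars) and endocrine progenitors (crosses). Ptf1a, Myc and Gfi1 show a gap between circles and squares, whereas Pnliprp1 and Nr5a2 overlap.

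Genes of the zymogen granule, of acinar secretion and of the Reg family included called members. Of 27 tested, 6 were called lower (background 8.6%) and none higher, at a list median of -1.09. In the fit of 7 arrays 14 were called lower, with the methods' t-test 8, and 2 without acinar replicate 3 or 3 without acinar replicate 1. Rab3d, a small GTPase of zymogen granules, measured 7.69, 7.78, 8.50 and 9.04 in null cells and 10.61, 10.79 and 10.77 in acinar cells (-2.47 ± 0.39 SE, adjusted p = 2.7e-06). Rab27b, another granule GTPase, differed by -1.37 on its brightest probe; 3 of its 4 probes were called lower and 1 higher. Aqp8, a water channel, differed by -1.59 (adjusted p = 0.00058), and the creatine pathway enzymes Gatm and Gamt by -1.37 and -1.09. Reg3g was the only Reg gene called in the fit of 48 arrays, at -1.68, with null and acinar means of 5.11 and 6.79, both near the dim end of the array. Reg1 measured 9.76, 10.21, 10.63 and 11.14 in null cells and 12.45, 12.72 and 12.54 in acinar cells (-2.13 ± 1.03 SE, adjusted p = 0.09 with 48 arrays, 0.021 with 13 and 0.00094 with 7), and Sycn, a granule membrane protein, differed by -1.91 (adjusted p = 0.13 with 48 arrays and 0.0027 with 7). Gp2, Reg2 and Dmbt1 averaged under 6.4 in both groups, whereas adult duct preparations averaged 12.92, 11.69 and 13.01.

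Of 13 acinar transcription factors tested, 6 were called lower (8.6% of all genes) and 1 higher (13.7%) in null cells. Besides Ptf1a and Gfi1, Myc, the growth regulator, showed the largest fall, with 7.06, 6.26, 7.31 and 7.80 in null cells and 11.89, 10.79 and 12.09 in acinar cells. That is a 22.4-fold lower value (-4.48 ± 0.44 SE, adjusted p = 1.3e-10), close to the 6.50 ± 0.74 (SD, n = 3) of endocrine progenitors and below the 9.34 ± 0.14 (SD, n = 3) of E15 progenitors. Xbp1, which expands the secretory apparatus, measured 11.15, 11.15, 11.68 and 11.81 in null cells and 12.86, 12.84 and 12.99 in acinar cells (-1.45 ± 0.16 SE, adjusted p = 3.3e-09), with 3 of its 4 probes called. Gata6 differed by -1.55, with null cells (8.53 ± 0.29, SD, n = 4) below acinar cells (10.08 ± 0.08, SD, n = 3), E15 progenitors (10.83) and endocrine progenitors (10.35) alike. Foxp2, a forkhead factor, differed by -1.20.

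Rbpjl, Gata4, Mecom, Nr5a2, Creb3l1 and Bhlha15 were not called. Rbpjl measured 9.73, 11.89, 10.999 and 11.34 in null cells and 12.36, 12.04 and 11.93 in acinar cells (-1.12 ± 0.50 SE, adjusted p = 0.065). Gata4 measured 9.69, 10.86, 10.86 and 11.32 in null cells and 11.54, 11.85 and 11.48 in acinar cells; its adjusted p was 0.011 but its difference of -0.94 missed the 2-fold limit. Nr5a2, a nuclear receptor that works with Ptf1a, averaged 12.64 ± 0.21 (SD, n = 4) in null cells and 12.26 ± 0.28 (SD, n = 3) in acinar cells, against 9.97 in endocrine progenitors. Tfcp2l1 rose, with 9.09, 8.61, 8.78 and 8.41 in null cells and 7.34, 7.47 and 7.63 in acinar cells (1.25 ± 0.25 SE, adjusted p = 0.00011). Across the enzyme, granule and transcription factor lists null replicate 1 had the lowest mean of the 4 null arrays, and it also had the highest macrophage mean, 12.00. The part of such cells in these differences was not tested.

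Genes of protein folding and export in the endoplasmic reticulum were lower too. Of 31 tested, 12 were called lower (8.6% of all genes) and 1 higher. When each gene stood for its probe with the largest variance 19 were lower. The share of all genes called under that choice was not computed. The list mean was 11.32, 11.36, 11.53 and 11.68 in null arrays and 12.32, 12.16 and 12.41 in acinar arrays. In 24 of the 31 the null arrays lay below the acinar arrays without overlap (22% of all genes). The folding enzyme gene Pdia4 had the largest difference, with 6.17, 6.67, 6.76 and 6.72 in null cells and 11.82, 8.75 and 12.03 in acinar cells (-4.29 ± 0.77 SE, adjusted p = 1.8e-05). Sdf2l1, an endoplasmic reticulum chaperone component, measured 8.19, 7.94, 8.26 and 8.80 in null cells and 11.42, 9.89 and 11.70 in acinar cells (-2.70 ± 0.46 SE, adjusted p = 7.4e-06). For both, acinar replicate 2 was the lowest acinar array. Edem2, of the degradation of misfolded glycoproteins, differed by -1.79, the oxidoreductase Pdia3 by -1.25, the signal peptidase subunits Spcs2 and Spcs3 by -1.25 and -1.24, and the translocon subunit Sec61b by -1.06. Ddit3 (CHOP), a factor of the stress response, rose, with 9.66, 9.66, 9.99 and 10.002 in null cells and 8.22, 8.63 and 8.38 in acinar cells (1.42 ± 0.18 SE, adjusted p = 4.1e-08). Against E15 progenitors 1 of the 31 genes was called, lower in null cells (7.78% of all genes).

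The place of null cells between the 2 lineages was read from genes that separate acinar cells from endocrine progenitors, a choice that used no null array. There were 2125 such genes higher in acinar cells (14.7% of genes) and 2223 lower (15.3%). On a scale on which the endocrine progenitor mean is 0 and the acinar mean is 1, the median gene higher in acinar cells lay at 0.75 in null cells (quartiles 0.42 and 1.02), and the median gene lower in acinar cells at 0.71 (quartiles 0.34 and 0.98). Of the first set 69.5% and of the second 64.9% were nearer the acinar end. E15 progenitors placed in the same way had medians of 0.67 and 0.72. The 4 null arrays had medians of 0.60, 0.77, 0.77 and 0.84 for genes higher in acinar cells and 0.63, 0.70, 0.73 and 0.77 for the others, with replicate 1 lowest and replicate 4 highest in both. Ptf1a lay at 0.58, Gfi1 at 0.67, Rbpjl at 0.75, Bhlha15 at 0.77 and Cela1, an elastase, at 0.85, whereas Myc lay at 0.12. Genes were chosen for a large difference between the 2 end populations, so the spread of those arrays stretches the scale.

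**Figure D3:**
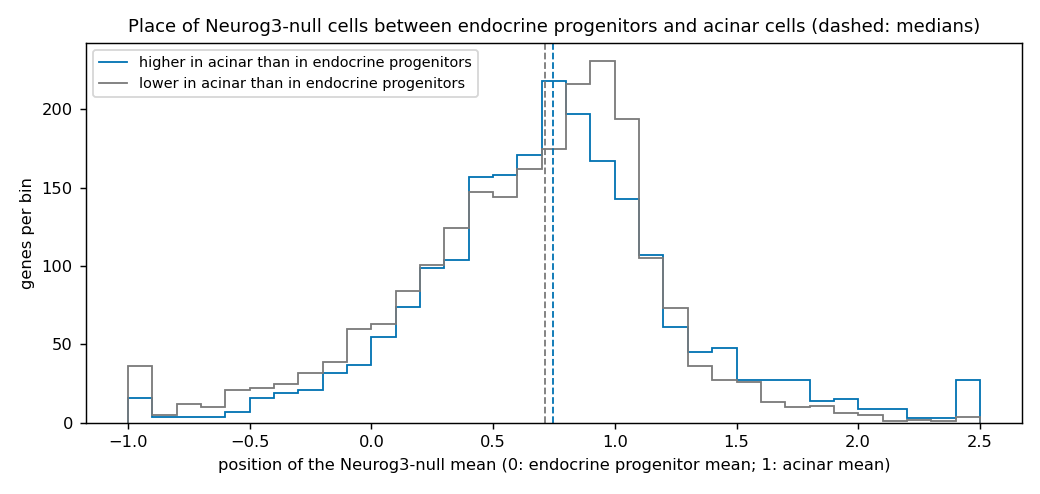
Number of genes (y axis, bins of 0.1) by the place of the Neurog3-null mean between the endocrine progenitor mean (0) and the acinar mean (1) on the x axis, for 2125 genes higher and 2223 genes lower in acinar cells; the end bins also hold values beyond the axis, and dashed lines are medians. Both medians, 0.75 and 0.71, lie nearer the acinar end, and both curves spread from below 0 to above 1.

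Endocrine genes stood far below endocrine progenitors, and some stood above acinar cells. Of 18 endocrine transcription factors tested, 2 were called higher than in acinar cells (13.7% of all genes) and 1 lower (8.6%), and 16 were lower than in endocrine progenitors (14.1% of all genes). Neurod1, a target of Neurog3, averaged 4.77 in null cells and 4.75 in acinar cells, against 12.98 in endocrine progenitors. Pax4 averaged 6.30 in null cells and 6.48 in acinar cells, Pax6 4.94 and 5.21, and Isl1 5.68 and 6.05, all against more than 12.3 in endocrine progenitors. Besides Neurog3, Myt1 was called higher, with 7.49, 6.27, 7.08 and 5.99 in null cells and 5.23, 5.03 and 5.22 in acinar cells (1.55 ± 0.27 SE, adjusted p = 8.9e-06), far below the 13.77 of endocrine progenitors. Runx1t1 was called lower (-1.20 ± 0.38 SE, adjusted p = 0.0098), and 2 of its 5 probes were; the call was lost with 13 arrays (adjusted p = 0.061) and with the methods' t-test. Insm1 averaged 7.42 ± 0.78 (SD, n = 4) in null cells and 6.50 ± 0.50 (SD, n = 3) in acinar cells, a difference of 0.93 short of 2-fold, and its arrays overlapped.

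Of 27 genes of islet hormones and neuroendocrine granules, 8 were called higher than in acinar cells (13.7% of all genes), 1 lower (8.6%), and 25 lower than in endocrine progenitors (14.1%). Under a filter on 3 of the 7 arrays 5 were called higher. The 8 were mainly genes of granule proteins. Chgb, a granin, measured 7.84, 8.49, 7.50 and 8.14 in null cells and 5.95, 6.58 and 6.13 in acinar cells (1.77 ± 0.38 SE, adjusted p = 0.00019), against 13.92 in endocrine progenitors. Syt7, a calcium sensor of exocytosis, differed by 1.86, Scg5 by 1.81, Resp18 by 1.63, Snap25 by 1.40 and Chga by 1.39, and the hormone gene Pyy by 1.55. Pcsk1, a prohormone convertase, fell by 1.05. The insulin gene Ins2 averaged 6.48 in null cells and 7.22 in acinar cells, with no call. In E15 progenitors Chgb averaged 8.23 and Chga 7.59, near the null levels of 7.99 and 7.48.

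Duct and tubular genes included many that were higher in null cells. Of 24 tested, 9 were called, all higher in null cells (background 13.7%), and the list mean was 10.75, 10.68, 10.73 and 10.57 in null arrays, against 9.90, 9.84 and 9.75 in acinar arrays and 10.58 ± 0.19 (SD, n = 3) in E15 progenitors. Cldn2, a claudin that forms cation pores in leaky epithelia, measured 10.63, 10.56, 10.14 and 9.57 in null cells and 5.77, 5.42 and 5.00 in acinar cells. It was 28.4-fold higher (4.83 ± 0.38 SE, adjusted p = 2.6e-13) and also above E15 progenitors (7.71), and it stood at the level of adult duct cells (10.16); its second, dimmer probe was not called. Pkhd1, the gene of fibrocystin in primary cilia, measured 10.76, 10.86, 10.24 and 10.32 in null cells and 7.57, 7.75 and 7.31 in acinar cells (3.00 ± 0.34 SE, adjusted p = 4e-09), and 10.03 in E15 progenitors. Car2, carbonic anhydrase, measured 10.41, 11.05, 11.97 and 11.24 in null cells and 8.71, 8.46 and 8.43 in acinar cells (2.63 ± 0.46 SE, adjusted p = 1.1e-05).

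Krt7, a simple-epithelium keratin, measured 12.26, 12.48, 12.14 and 11.78 in null cells and 10.57, 10.07 and 10.36 in acinar cells (1.83 ± 0.15 SE, adjusted p = 1.5e-12). Cys1, of the primary cilium, differed by 1.79, and Cftr, the chloride channel of ducts, by 1.60 at low levels (6.82 in null cells and 5.22 in acinar cells). Anxa1 and Anxa3, annexins that leukocytes also express, differed by 1.81 and 1.15 and stood above E15 progenitors too. Of the 24 genes of this list 15 were not called, among them general epithelial genes and the keratin gene Krt19. Krt8 averaged 13.33 in null cells and 13.12 in acinar cells, Krt19 11.32 and 11.003, and Cdh1 (E-cadherin) 13.27 and 13.35, with no call. Epcam differed by -0.94, short of 2-fold, with no overlap.

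Transcription factors of trunk and progenitor cells gave 2 of 20 called higher and 2 lower, near the 13.7% and 8.6% of all genes. Glis3, a zinc-finger factor of duct and beta cells, measured 12.13, 11.72, 11.76 and 11.34 in null cells and 9.56, 9.05 and 9.10 in acinar cells (5.65-fold, SE 0.17 on the log2 scale, adjusted p = 9.7e-15), against 11.57 in E15 progenitors and 12.70 in adult duct cells. Onecut2 differed by 1.23 at values near the dim end, 4.90 and 3.68. Nkx2-2 was lower, at 8.77, 8.32, 8.23 and 7.86 in null cells and 9.64, 9.46 and 10.03 in acinar cells (-1.42 ± 0.31 SE, adjusted p = 0.00031). Sox9 averaged 11.30 in null cells and 11.51 in acinar cells, with no call, and 12.56 in E15 progenitors, against which it was called lower. Pdx1 differed by -0.92 from acinar cells, short of 2-fold, and Hnf4a by 0.14.

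**Figure D4:**
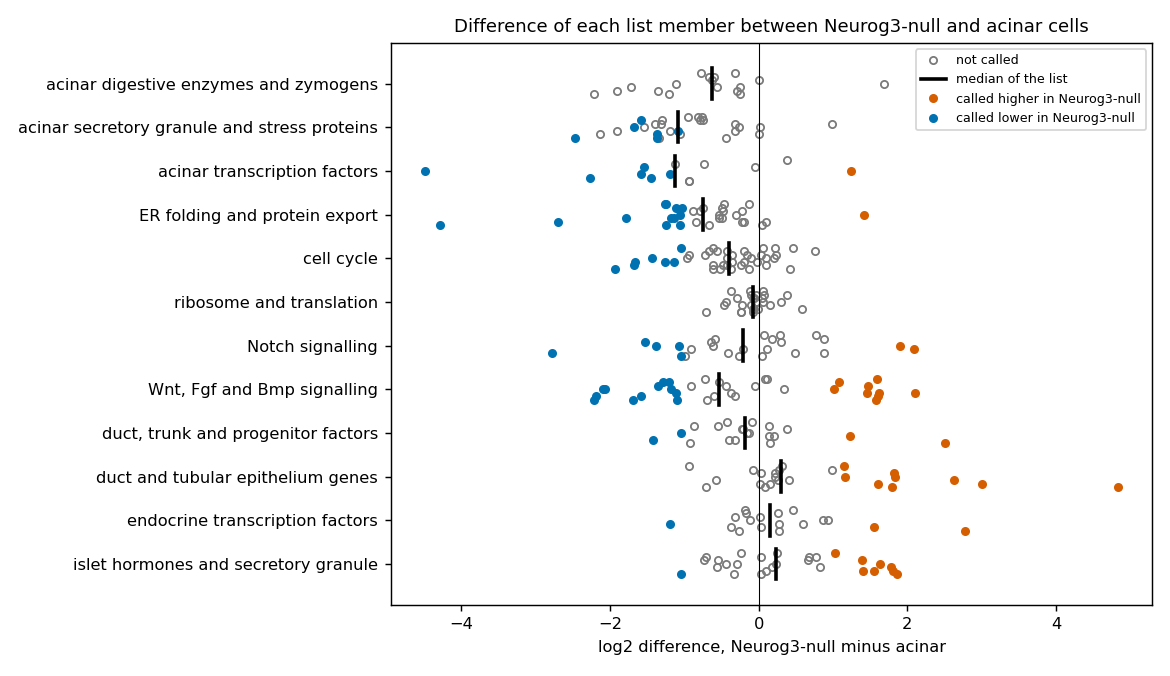
Log2 difference, Neurog3-null minus acinar (x axis), of each tested gene of 12 lists (rows), filled where called and open where not, with the list median as a black bar. Called duct and tubular genes all lie on the right, up to 4.83 for Cldn2, and called cell cycle genes all on the left; the enzyme list has a median of -0.62 with no gene called.

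Of 25 Notch genes 2 were called higher (13.7% of all genes) and 5 lower (8.6%). The ligand gene Dll1 measured 6.81, 6.41, 6.49 and 7.42 in null cells and 9.92, 9.01 and 9.73 in acinar cells (-2.77 ± 0.33 SE, adjusted p = 1.2e-08), and 8.73 in E15 progenitors and 8.51 in endocrine progenitors. The ligand gene Jag1 differed by -1.38, the feedback regulator Nrarp by -1.53 and the effector Hes1 by -1.04. The receptor gene Notch3 was higher, at 9.50, 9.57, 9.21 and 8.94 in null cells and 7.58, 7.51 and 7.14 in acinar cells (1.90 ± 0.35 SE, adjusted p = 3e-05), as was Dtx1, a Deltex ubiquitin ligase (2.09 ± 0.28 SE, adjusted p = 1e-07).

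Of 33 genes of Wnt, Fgf and Bmp signalling, 9 were called higher (13.7% of all genes) and 12 lower (8.6%). The receptor genes Fgfr2, Fgfr3 and Fgfr4 were higher by 1.09, 2.10 and 1.59, and Fgfr1 fell by 1.36 on the log2 scale. Fgfr3 measured 10.68, 10.32, 10.40 and 10.05 in null cells and 8.45, 8.33 and 8.02 in acinar cells (adjusted p = 4.7e-11), the level of E15 progenitors (10.34). Axin2, a feedback target of canonical Wnt signalling, measured 7.48, 7.48, 8.31 and 8.43 in null cells and 9.79, 9.70 and 9.34 in acinar cells (-1.69 ± 0.36 SE, adjusted p = 0.00017). The R-spondin receptor genes Lgr4 and Lgr5 differed by -1.58 and -2.19, Lgr5 at a null mean of 4.39. Id1 and Id3, targets of Bmp signalling, differed by -2.22 and -2.10, and Smad6 by -1.18, while the inhibitory Smad7 differed by 1.47 with 1 probe called in each direction. The ligand genes Wnt5a and Wnt7b were higher by 1.58 and 1.60.

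Among 40 cell cycle genes 7 were called, all lower in null cells (8.6% of all genes), at a list median of -0.39. Cdk1, the mitotic kinase, measured 11.08, 11.11, 11.38 and 11.30 in null cells and 12.29, 12.26 and 12.24 in acinar cells (-1.05 ± 0.27 SE, adjusted p = 0.0015). Cdk2 differed by -1.93, the kinesins Kif11 and Kif20a by -1.68 and -1.66, Aurkb by -1.44, Ccne2 by -1.26 and Cdc20 by -1.14. The proliferation antigen gene Mki67 averaged 12.93 in null cells and 12.69 in acinar cells and the replication helicase gene Mcm3 12.30 and 11.87, with no call. Against endocrine progenitors 29 of the 40 were called higher in null cells (18.7% of all genes). Of 13 cell cycle inhibitor genes 2 were called lower (8.6% of all genes), Cdkn1b and Rb1, both at -1.14. Both calls were lost when 1 or more of the 7 arrays were left out in turn. None of 27 ribosome and translation genes was called by limma in the fit of 48 or of 7 arrays or by the methods' t-test, and 6 had an unadjusted p under 0.05.

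Genes of cell adhesion and basement membrane gave 3 of 25 higher and 2 lower, near the 13.7% and 8.6% of all genes. Lama3, a laminin chain, measured 8.09, 6.43, 6.01 and 6.46 in null cells and 4.72, 4.47 and 4.49 in acinar cells (2.18 ± 0.47 SE, adjusted p = 0.00024). Cd44 differed by 2.10 and Cdh2 (N-cadherin) by 1.29. Col4a1, a basement membrane collagen, fell by 1.04 and the integrin gene Itga2 by 1.27 at values of 5.56 in null cells and 6.83 in acinar cells.

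Many markers of blood cells were higher in null cells. Of 17 macrophage and leukocyte markers 16 were called higher (13.7% of all genes). Csf1r, the receptor that macrophages need, measured 13.85, 13.67, 12.998 and 13.41 in null cells and 5.08, 4.91 and 4.80 in acinar cells (8.55 ± 0.61 SE, adjusted p = 2.3e-14), the largest difference of any named gene. Ptprc, which encodes the leukocyte antigen CD45, measured 11.09, 10.48, 10.04 and 11.03 in null cells and 3.27, 3.59 and 3.34 in acinar cells, although the methods name CD45 and Ter119 as markers for excluding blood cells. The 15 genes with the largest rise were Csf1r, Lyz1, Ptprc, Cxcl2, Lyz2, Ctss, Ms4a6b, Ly86, C1qb, Ccr2, Adgre1, Ms4a6d, Tyrobp, Abca9 and Sla, with differences of 6.36 or more. Of 8 erythroid markers 4 were called higher, among them Slc4a1, the anion exchanger of red cells (8.55, 10.83, 10.88 and 9.54 in null cells and 5.82, 4.69 and 4.26 in acinar cells), and Klf1 (10.52 and 6.73 on average). All 4 null arrays stood above the acinar arrays in 16 of the 17 macrophage and leukocyte markers and in 4 of the 8 erythroid markers. Over all genes tested this held for 4443 of 14485. Of the 8, 2 differed below 0. The globin genes Hbb-y, Hbb-bh1 and Hba-x and the gene Tfrc were not called in the fit of 7 arrays. Of all probes tested 2.54%, and of those called higher 16.5%, tracked the macrophage markers across wild-type arrays.

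Endothelial markers ran the other way, with 11 of 12 called lower in null cells (8.6% of all genes). Kdr, the main Vegf receptor, measured 6.87, 6.59, 6.68 and 7.41 in null cells and 9.43, 10.93 and 10.25 in acinar cells (-3.32 ± 0.40 SE, adjusted p = 1.5e-08), against 6.24 in E15 progenitors. The 15 genes with the largest fall were Fabp4 (-4.86), Myc, Pdia4, Emcn (-3.75), Myct1, Ppp4c, Sox7 (-3.64), Klhl4, Cav1 (-3.60), Sox18 (-3.57), Ccar2, Mab21l3, Pfn1, Dctd and Ube2q2 (-3.35). Myc, Pdia4, Ppp4c, Ccar2, Mab21l3, Pfn1, Dctd and Ube2q2 did not follow the macrophage, endothelial or mesenchyme markers. The 10 genes that most favoured acinar cells over both E15 progenitors and endocrine progenitors, chosen without the null arrays, were Aplnr, Fabp4, Plvap, Ctla2a, Gimap4, Cav1, Emcn, Tek, Tmem204 and Calcrl. Of these 8 were called lower in null cells (8.6% of all genes), and Ctla2a and Calcrl were not. The same acinar arrays served for the choice and for this comparison, which tilts the count towards lower calls. Aplnr, the apelin receptor, measured 9.53, 9.79, 9.52 and 11.14 in null cells and 12.16, 12.47 and 12.19 in acinar cells, against 3.49 in E15 progenitors. Null replicate 4 was the highest null array for the endothelial list, at 7.42. Of 14 mesenchyme markers 1 was called higher and 2 lower, and of 8 neural crest markers 1 each. These counts lie near the 13.7% higher and 8.6% lower of all genes.

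**Figure D5:**
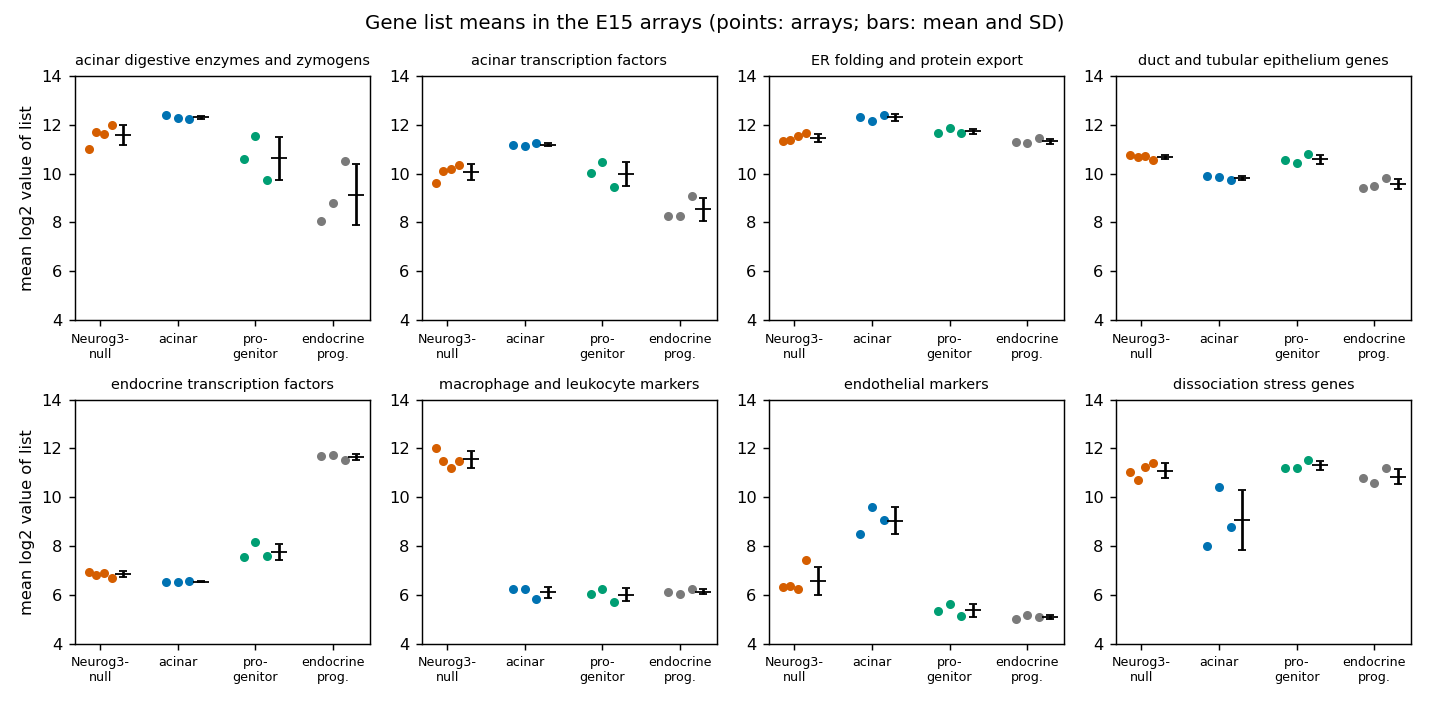
Mean log2 value (y axis) of 8 gene lists in each E15 array (points) of Neurog3-null cells, acinar cells, progenitors and endocrine progenitors, with the mean and SD of each population beside them. Macrophage markers stand at 11.20 to 12.00 in null arrays only, endothelial markers are highest in acinar arrays, and endocrine transcription factors are high in endocrine progenitors alone.

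With the probes that followed macrophage, endothelial or mesenchyme markers set aside, 2773 probes were called higher and 3380 lower. Erythroid markers and other blood cell genes were not used to set probes aside, so blood cell signal can remain among these probes. The 25 genes outside those followers with the largest rise, listed after their values were seen, were S100a8, Itga4, Olfm1, Il18, Slc4a1, Grin3a, Ntm, Kcnc2, Hdc, Gbp8, Ermap, Mpo, S100a9, Gata1, Rassf4, Fgf12, Dner, Tcf24, Dock10, Cplx2, Pyroxd2, Slc26a3, Atf3, Cldn13 and Icos. Slc4a1 is a member of the erythroid list and Atf3 of the stress list. The values of 6 other genes of the 25 follow, chosen after their values were seen. These 6 do not stand for the 25, whose other members, such as Slc4a1, include blood cell genes. Olfm1, a secreted glycoprotein of neurons, measured 10.97, 11.07, 10.73 and 10.74 in null cells and 5.64, 6.19 and 4.95 in acinar cells (5.29 ± 0.31 SE, adjusted p = 2.4e-16), against 8.14 in E15 progenitors and 11.71 in endocrine progenitors. Cplx2, a complexin of regulated exocytosis, measured 12.96, 12.88, 12.61 and 12.46 in null cells and 8.18, 8.74 and 8.34 in acinar cells (4.31 ± 0.27 SE, adjusted p = 1.6e-15), and 13.32 in endocrine progenitors. Dner, a Delta-like transmembrane protein, averaged 9.29 ± 0.51 (SD, n = 4) in null cells and 4.83 ± 0.12 (SD, n = 3) in acinar cells, against 7.25 in E15 progenitors and 12.70 in endocrine progenitors. Grin3a, a glutamate receptor subunit, measured 11.21, 10.98, 11.10 and 10.31 in null cells and 6.33, 6.02 and 5.98 in acinar cells, and was above both progenitor populations (9.56 and 8.87), as was Fgf12 (9.25 in null cells, 4.78 in acinar cells). Tcf24, a helix-loop-helix factor, averaged 11.03 ± 0.86 in null cells and 6.63 ± 0.68 in acinar cells, above E15 progenitors (7.41) and endocrine progenitors (7.63).

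Of the 25 genes outside the followers with the largest fall, 6 are given, chosen after their values were seen. Mab21l3 measured 6.18, 6.83, 6.69 and 6.95 in null cells and 10.09, 10.24 and 10.20 in acinar cells (-3.51 ± 0.29 SE, adjusted p = 1e-12). Pfn1, the actin-binding profilin, differed by -3.41, Dctd, deoxycytidylate deaminase, by -3.39, the kinase gene Plk2 by -3.26, Plac1 by -3.25, and Nes, the intermediate filament nestin, by -3.01. Nes averaged 7.97 ± 0.81 (SD, n = 4) in null cells and 10.98 ± 0.09 (SD, n = 3) in acinar cells, and 5.99 in endocrine progenitors. The 3′ over 5′ excess of the control probes was higher in all null arrays, and its part in these falls was not tested.

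Stress genes of cell dissociation were higher in null cells, with 11 of 16 called (13.7% of all genes). Fos measured 12.63, 11.41, 12.62 and 12.81 in null cells and 4.46, 12.55 and 9.33 in acinar cells, so that the groups overlapped and the acinar arrays alone spread by an SD of 4.07. Atf3 measured 10.04, 10.18, 11.02 and 11.42 in null cells and 5.23, 8.37 and 5.83 in acinar cells (4.19 ± 0.64 SE, adjusted p = 1.5e-06). Dusp1, a phosphatase, measured 12.81, 12.18, 12.83 and 12.92 in null cells and 9.41, 10.68 and 9.67 in acinar cells. In the fit of the 7 arrays 7 of the 16 were called. E15 progenitors and endocrine progenitors had list means of 11.30 and 10.84, close to the 11.09 of null cells, against 9.06 ± 1.24 (SD, n = 3) in acinar cells. The part of the collection buffer, which the methods give as different for acinar cells, was not tested.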

How the data were processed

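RNA of sorted mouse pancreatic cells was amplified and hybridized to Affymetrix mouse arrays. The authors corrected, normalized and summarized the arrays by RMA, run in R 2.11.1 per the labels, and the table they deposited holds log2 values of 45101 probes in 48 arrays; RMA sets arrays against each other and counts no molecules, and the number of arrays limits the precision. These values were used as they stand. Probes above 100 on the linear scale in at least 1 array were kept (32078). With limma 3.58.1 in R 4.3.3, 13 population means were fitted over all 48 arrays, and the contrast Neurog3-null minus acinar was tested with Benjamini-Hochberg adjustment over all probes kept. A t-test, named in the methods, was an alternative, as were fits of 7 or 13 arrays, other filters, quantile normalization, array weights and leaving out each array.

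Names came from the platform table. Of the probes 34958 carry 1 gene, 932 several and 9211 none, and only the first were named. A gene is its probe with the highest mean over 48 arrays (14485 genes tested). The 20 gene lists were written from general knowledge. Members, lists and tests were chosen with earlier results of these data known. Genes in the text are the target, sort and marker genes, the 15 largest non-overlapping called differences in each direction, up to 4 members of each list, all enzymes and acinar transcription factors, and 10 genes most favouring acinar cells; other list members and Xist were named after their values were seen. The fit was tested on simulated data. Promoters are RefSeq's on GRCm38.p6, used for sequence alone.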

Additional observations from a re-analysis of the deposited data

Results flagged for a closer look

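Among 208 values compared within the 4 Neurog3-null arrays (named genes, list means and 3′ to 5′ control ratios), 12 had 1 null array far from the other 3, a gap past Dixon's 95% critical share of the group's whole range. Chance flags about 1 in 20 such groups. Null replicate 2 was the array in 5 of them, replicate 1 in 4, replicate 4 in 2 and replicate 3 in 1.

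Null replicate 1 was low for the enzyme gene Ctrc, at 7.92 against 9.47 to 9.68 in the other null arrays, for Pdia4 at 6.17 against 6.67 to 6.76, for Lgr5 at 3.78 against 4.52 to 4.68, and for Smad6 at 6.11 against 6.37 to 6.40. Null replicate 2 was high for Pla2g1b, at 8.44 against 8.03 to 8.05, and low for the transcription factor Creb3l1, at 9.30 against 9.99 to 10.13. The same array was low for the stress genes Fos, at 11.41 against 12.62 to 12.81, and Dusp1, at 12.18 against 12.81 to 12.92, and its Gapdh probes differed by 1.86 between the 3′ and 5′ ends, against 1.12 to 1.23. Null replicate 3 was low for Rassf4, at 10.49 against 11.11 to 11.12. Null replicate 4 was high for the endothelial gene Aplnr, at 11.14 against 9.52 to 9.79, and for the mean of the endothelial list, at 7.42 against 6.23 to 6.35.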

How the results depend on the processing

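The total of probes called depended mainly on the size asked for. With no size limit 7054 were higher and 7251 lower, and with a 4-fold limit 1083 and 582. Leaving out 1 array gave totals of 6294 (without acinar replicate 3) to 7479 (without Neurog3-null replicate 4), and the methods' t-test gave 6030, of which 5977 were shared with the 7036. No probe called both in the fit of 48 arrays and in one of these other fits changed direction.

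The enzyme list was the least settled. Against 0 of 17 called lower, the fit of the 7 arrays gave 6, the 13 arrays of 4 E15 populations 1, array weights 1, and the t-test 4. Granule genes called lower numbered 14 with 7 arrays and 10 with 13 arrays, against 6, and between 2 (without acinar replicate 3) and 6 when 1 array was left out. Taking the probe with the largest variance gave 19 lower genes of the endoplasmic reticulum list, a filter on 3 of the 7 arrays gave 5 higher hormone and granule genes, and 7 arrays or the t-test gave 7 higher stress genes. The cause of these shifts was not tested, apart from the standard errors given for the enzymes. The share of all genes called by the probe with the largest variance was not computed.

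The acinar and null arrays share replicate numbers 1 to 3. Same-numbered arrays deviated together at r of -0.12, 0.11 and -0.03, and differently numbered arrays at -0.27 to 0.26. So few pairs gave no sign of pairing by number and cannot exclude it. With the number as a replicate block in the 7 arrays, 7279 probes were called (6584 shared with the 7036), with 6 enzymes lower, 15 granule genes lower and 7 stress genes higher, and Pnliprp1 at -0.028.

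Without centring, r was 0.893 with acinar cells and 0.903 with E15 progenitors; without the probes that followed other cell types, a choice made after seeing the data, it was 0.565 and 0.581. Genes lower in acinar cells lay at a median position of 0.825 when chosen at 4-fold.

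Some genes with differences near 0 changed sign. Creb3l1 was 0.088 with array weights, and Neurod1 -0.19 with array weights and -0.0040 after quantile normalization. Leaving out 1 array moved Pnliprp1 between -0.040 and 0.066, Creb3l1 between -0.20 and 0.14, Neurod1 between -0.24 and 0.21 and Pax4 between -0.33 and 0.0098. Among single-gene values under other settings 30 values, of 17 genes, lost their call. With array weights these were Gamt, Sec61b, Runx1t1, Anxa3, Hes1, Cdk1, Cdc20 and Cdkn1b, and with the t-test Aqp8, Gatm, Gamt, Runx1t1, Pyy, Anxa3, Onecut2, Hes1, Gimap4, Tmem204 and Fos. Leaving out 1 array cost 38 calls of 16 genes.

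The number of arrays limits the precision, and dim probes near the floor of the array understate differences.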
